A study of Sus scrofa with 11 samples.

Results

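Lysosomes are the acid compartments in which cells take apart what they have engulfed. The genes described here are those of soluble lysosomal hydrolases and their cofactors, of lysosomal membrane proteins, of the proton pump that acidifies the organelle, and of the transcription factors that switch lysosomal genes on. They were chosen by name from a list of 37 symbols, and 35 of these are gene names in the deposited table of 35670 genes. ATP6V1E1 and ATP6V0C are not gene names there. Rows without a name that lie over the RefSeq positions of these pump subunits are described separately and enter no count of the 35.

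RNA was sequenced from the carotid artery of pigs on a Western diet high in fat and calories, kept up for 12 weeks. Every animal was anaesthetised weekly and given an intravenous infusion over 15 to 30 minutes at 400 nM. The SWNT animals received single-walled carbon nanotubes as an empty carrier, and the SWNT-SHP1i animals received that carrier bearing a small-molecule SHP-1 inhibitor, SHP-1 being a phosphatase that passes on the signal by which macrophages are told not to engulf a cell. The series, which asked whether a macrophage-directed inhibitor lowers apoptotic cell load and inflammation without anaemia, lists 5 SWNT and 6 SWNT-SHP1i samples, each with its own animal number. Counts were analysed for 5 per group, since SWNT-SHP1i replicate 4, labelled as having died before harvest, was not analysed here. Untreated pigs and pigs on a normal diet are not among the groups, and the labels give neither sex, age, breed nor how diseased each artery was.

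Macrophages that engulf dying cells and modified lipoproteins send them to lysosomes. There acid lipase frees cholesterol from its esters, and the paired cholesterol carriers NPC2 and NPC1 hand it across the membrane. The proton pump has a cytosolic V1 sector that splits ATP and a V0 sector in the membrane that moves protons. TFEB, TFE3 and MITF are related transcription factors that bind a shared promoter element of many lysosomal genes and are held in the cytosol while nutrients are plentiful, so that their RNA level and their activity are separate quantities.

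Total counts ran from 27593564 to 47718854 per library. The tissue label was borne out by smooth muscle markers, all 10 of which were tested. Their summed level was 41587 to 61651 CPM in SWNT and 19640.2 to 50359 CPM in SWNT-SHP1i. CPM are counts scaled to the library total after its adjustment by TMM scaling. Among the libraries, SWNT-SHP1i replicates 3 and 6 were most often the lowest. Replicate 3 was lowest for 3436 of the 15930 genes tested and highest for 2240. Replicate 6 held the highest level of the 10 libraries for 29.4% of the 15930 genes tested and the lowest for 30.5%. Fold changes and list medians that moved by over 1.5 times or changed sign without it are given both ways. In whole tissue, more cells of a type and more RNA per cell cannot be told apart.

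All 35 lysosome genes were read well enough to be tested, and 0 of them passed the test between groups (edgeR's quasi-likelihood test, smallest adjusted p = 0.997). The background was the same, with 0% of all genes called and 739 of 15930 at an unadjusted p under 0.05. DESeq2 and limma-voom also called 0 genes, with 986 and 1400 at an unadjusted p under 0.05. The limma-voom fit gave each library a quality weight, so the libraries did not count equally in it. At an unadjusted p under 0.05, 8 of the 35 were higher in SWNT-SHP1i and 0 lower, which is 22.9% higher against a background of 3.49% higher and 1.15% lower among all genes. The 8 were the hydrolases and cofactors LIPA, HEXA, GUSB, GAA, MAN2B1, GM2A and GRN and the cholesterol carrier NPC2. With DESeq2, which gave no p for PLD3 and ATP6V0B, 8 members were at an unadjusted p under 0.05, beside 986 of all 15930 genes. With limma-voom 5 of the 35 members were, beside 1400 of all 15930 genes, so that the background was larger in both. Fold changes were positive for 31 of the 35 genes, where 50.8% of all genes were positive. Their median log2 fold change was 0.35, against 0.01 over all genes tested. Not a single member had all SWNT-SHP1i libraries above all SWNT libraries (background 0.0816%) or below them (0.276%).

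A single library carried much of this. Replicate 6 of SWNT-SHP1i was the highest of the 10 libraries for 27 of 35 members (77.1%, background 29.4%). It was the lowest for 2 members, LAMP2 and ATP6V1C1 (5.71%, background 30.5%). Its level was at least 2 times the median of the other 9 libraries for 20 members (57.1%, background 21.5%). Without replicate 6, 24 of 35 members were positive (68.6%, background 48.3%), the median was 0.15, and 3 members, GUSB, GAA and GRN, had an unadjusted p under 0.05 (8.57%, background 2.59% higher and 1.97% lower). Without replicates 3 and 6, 28 were positive (80%, background 51.2%), the median was 0.16 and only GUSB had an unadjusted p under 0.05 (2.86%, background 1.76%). Without SWNT-SHP1i replicate 3 alone, 32 were positive (91.4%, background 51.2%) and 6 had an unadjusted p under 0.05 (17.1%, background 3.26% higher). The count of 8 was also 3 without SWNT replicate 2, where 421 of all 16191 genes were under 0.05 in either direction. It was 4 without SWNT replicate 3, 4 or 5 (577 of 16168, 574 of 16157 and 436 of 16208 genes). Over the animals whose numbers begin with B9, which leaves out replicate 3 of both groups, it was 4 (539 of 16048 genes). Without SWNT-SHP1i replicate 5 it was 11, with 1583 of 16173 genes under 0.05, so that the number over all genes moved as well.

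**Figure D1:**
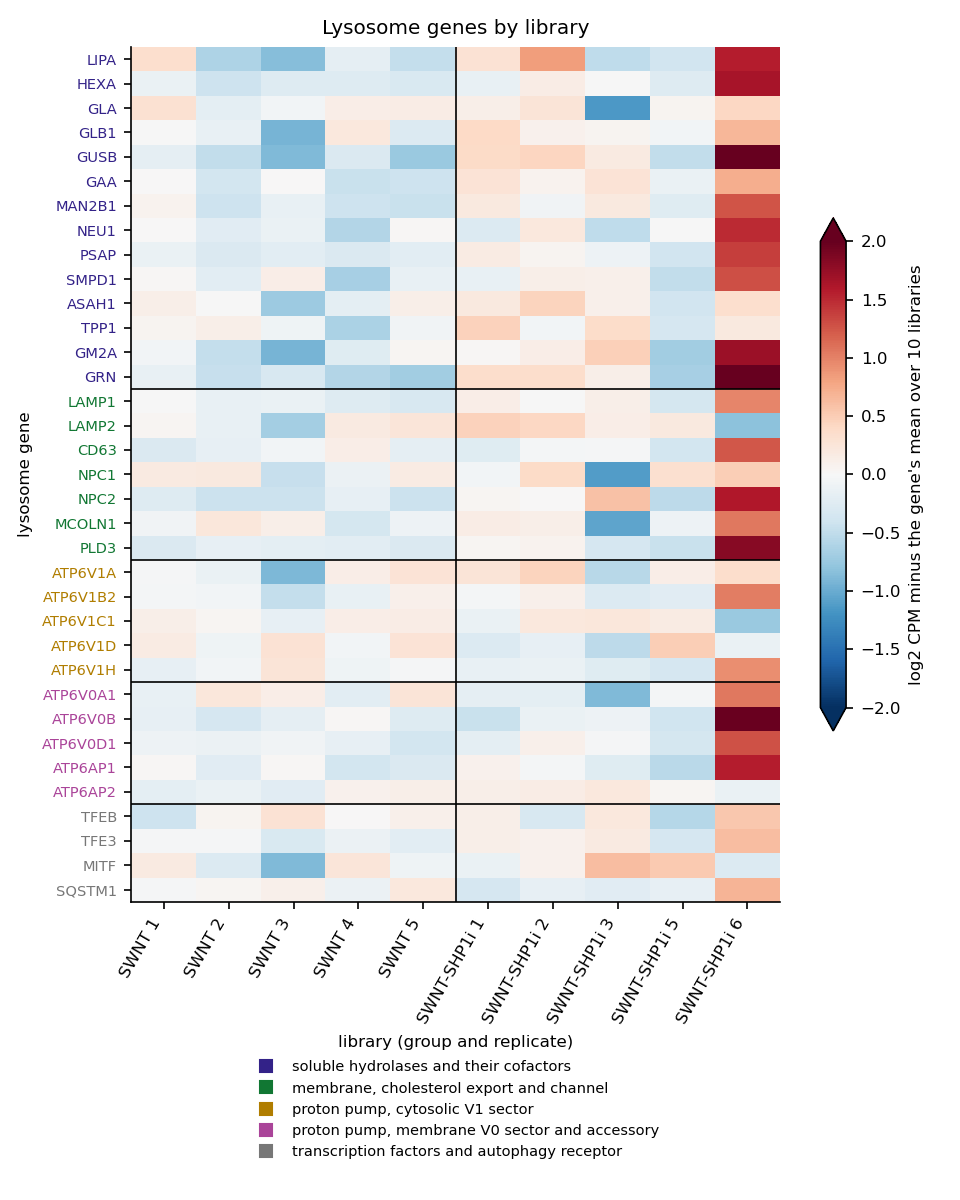
Heat map of the 35 lysosome genes (rows, grouped and coloured by role) in the 10 libraries (columns, SWNT left and SWNT-SHP1i right of the line). Colour is log2 CPM minus the gene's mean over the 10 libraries, cut off at 2 in either direction. The column of SWNT-SHP1i replicate 6 is red for most rows. It is blue for LAMP2 and ATP6V1C1 and paler blue for MITF, ATP6AP2 and ATP6V1D.

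Levels can be compared between genes only per exon length, as CPM per kilobase of exon (RPKM). On that scale the tetraspanin CD63 stood first in SWNT, with a median of 361 RPKM and a range of 329 to 439.9. PSAP, the precursor of the saposins that help hydrolases reach sphingolipids, came next with 185 (175 to 195). SQSTM1, the autophagy receptor p62, followed with 149.9 (134 to 168), LAMP1 with 124 (111 to 137) and NPC2 with 79.5 (79.3 to 95.5). The ranges of these 5 genes did not overlap in SWNT, except that the range of SQSTM1 touched that of LAMP1. At the bottom of the order were MITF with a median of 3.19 RPKM (1.84 to 3.99), the sialidase NEU1 with 3.26 (2.38 to 3.61) and the calcium channel MCOLN1 with 4.42 (3.64 to 5.40), and the range of MITF overlapped those of NEU1 and MCOLN1. In SWNT-SHP1i the same 5 genes led, with LAMP1 (149 RPKM) above SQSTM1 (129.7). GUSB stood at a median of 9.46 RPKM in SWNT and 17.2 in SWNT-SHP1i, and GRN at 46.3 and 80.8. Among 14 hydrolases and cofactors the SWNT medians thus ran from 3.26 RPKM for NEU1 to 185 for PSAP.

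**Figure D2:**
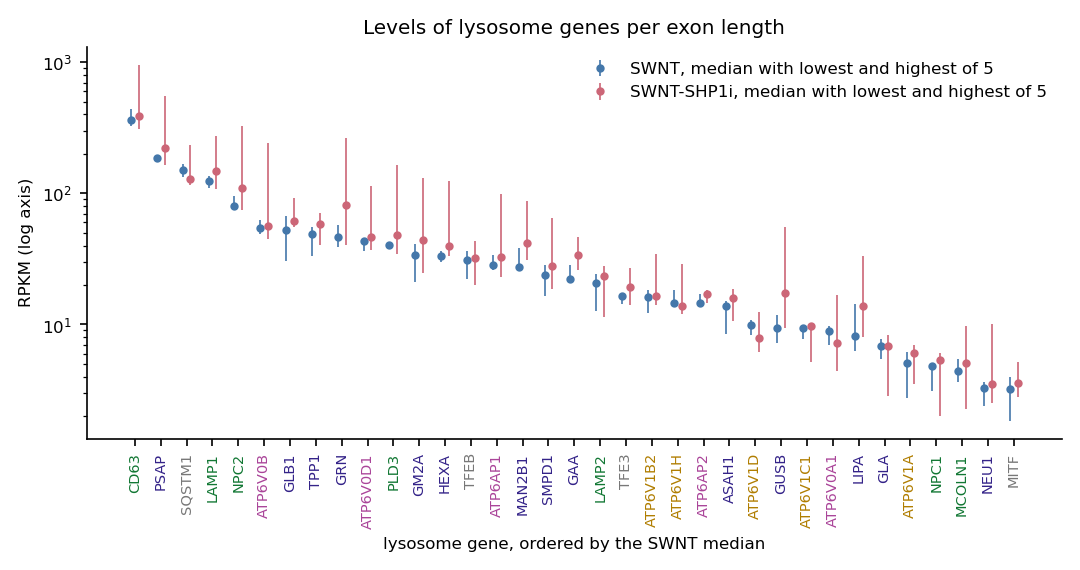
Level per exon length (RPKM, log axis) of the 35 lysosome genes, ordered by the SWNT median and coloured by role. Points are group medians and bars run from the lowest to the highest of 5 libraries; CD63 leads at 361 RPKM in SWNT, and the upper ends of the SWNT-SHP1i bars reach far above the SWNT bars for genes such as GRN, ATP6V0B and PLD3.

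Among the 14 hydrolases and cofactors, 13 had positive fold changes (92.9%, background 50.8%), and their median log2 fold change was 0.57. An unadjusted p under 0.05 was found for 7, all higher (50%, background 3.49%). Without replicate 6 the median was 0.27, 13 were still positive (background 48.3%) and 3 had an unadjusted p under 0.05 (21.4%, background 2.59%). GUSB (chromosome 3, 16671389 to 16689203 in Sscrofa11.1, plus strand), the beta-glucuronidase that trims glycosaminoglycan chains, had the smallest p. It stood at 57.9, 46.7, 35.6, 53.8 and 39.2 CPM in SWNT replicates 1 to 5. In SWNT-SHP1i replicates 1, 2, 3, 5 and 6 it stood at 85.1, 88.0, 74.1, 46.4 and 274 CPM. All SWNT-SHP1i libraries but replicate 5 lay above the highest SWNT library, and replicate 5 lay inside the SWNT range. The log2 fold change was 1.28 (95% interval 0.39 to 2.18, unadjusted p = 0.00868, adjusted p = 0.997 by edgeR), and 0.65 without replicate 6 (unadjusted p = 0.00863, adjusted p = 0.951 by edgeR).

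GRN (chromosome 12, 18893770 to 18900446), which encodes progranulin, a secreted protein delivered to lysosomes and needed for normal hydrolase function, had the same shape. Its SWNT levels were 292, 235, 258, 216 and 198 CPM. Its SWNT-SHP1i levels were 411, 410.4, 349, 204 and 1346 CPM in replicates 1, 2, 3, 5 and 6. Again all but replicate 5 exceeded every SWNT library. The log2 fold change was 1.18 (0.26 to 2.10) and 0.52 without replicate 6.

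LIPA (chromosome 14, 101126257 to 101193614) is lysosomal acid lipase, the enzyme that hydrolyses the cholesteryl esters of ingested lipoproteins. It measured 74.7, 38.6, 32.7, 52.1 and 42.4 CPM in SWNT and 72.2, 106, 41.7, 45.6 and 175 CPM in SWNT-SHP1i. The groups overlapped, with SWNT replicate 1 above 3 of the SWNT-SHP1i libraries. The log2 fold change was 0.87 (0.03 to 1.71), and 0.47 without replicate 6.

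GAA (chromosome 12, 2314591 to 2336988), the acid alpha-glucosidase that clears glycogen, differed less but more evenly. Its SWNT levels were 119, 91.8, 118, 86.8 and 88.8 CPM, and its SWNT-SHP1i levels 142, 123, 142, 108 and 194 CPM. All SWNT-SHP1i libraries but replicate 5 were above the highest SWNT library. The log2 fold change of 0.49 (0.06 to 0.92) was 0.35 without replicate 6.

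HEXA, the alpha subunit of beta-hexosaminidase A, and GM2A, the activator that presents GM2 ganglioside to that enzyme, had fold changes that lay largely in replicate 6. HEXA measured 140, 116, 128, 129 and 125 CPM in SWNT, then 139.8, 171, 153, 129 and 481 CPM in SWNT-SHP1i. Its log2 fold change was 0.75 (0.01 to 1.497) with and 0.22 without replicate 6. GM2A ran from 44.2 to 86.2 CPM in SWNT and from 51.8 to 116 CPM in the other 4 SWNT-SHP1i libraries, against 276 CPM in replicate 6. Its log2 fold changes were 0.86 and 0.33. The alpha-mannosidase MAN2B1 gave 0.63 (0.03 to 1.24) and 0.29, and it reached 376 CPM in replicate 6 against 115 to 180.0 CPM in the remaining 9.

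The other hydrolases had an unadjusted p above 0.05. PSAP, the most abundant of them, was tightly grouped in SWNT at 1059, 949, 1005, 947 and 1003 CPM. In SWNT-SHP1i it measured 1304, 1207, 1079, 889 and 3019.7 CPM, so that replicate 5 was below and the other 4 were above the whole SWNT range. Its log2 fold change was 0.60, and 0.17 without replicate 6. The beta-galactosidase GLB1 gave 0.44, the sialidase NEU1 0.54, the acid sphingomyelinase SMPD1 0.46, the acid ceramidase ASAH1 0.27 and the tripeptidyl peptidase TPP1 0.26. Of these, NEU1 (0.05) and SMPD1 (0.06) were near 0 without replicate 6, while ASAH1 (0.22) and TPP1 (0.25) hardly moved. The alpha-galactosidase GLA had a log2 fold change of -0.05 (-0.64 to 0.55), or -0.16 without replicate 6, and was at 6.33 CPM in SWNT-SHP1i replicate 3 against 12.1 to 18.5 CPM elsewhere.

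**Figure D3:**
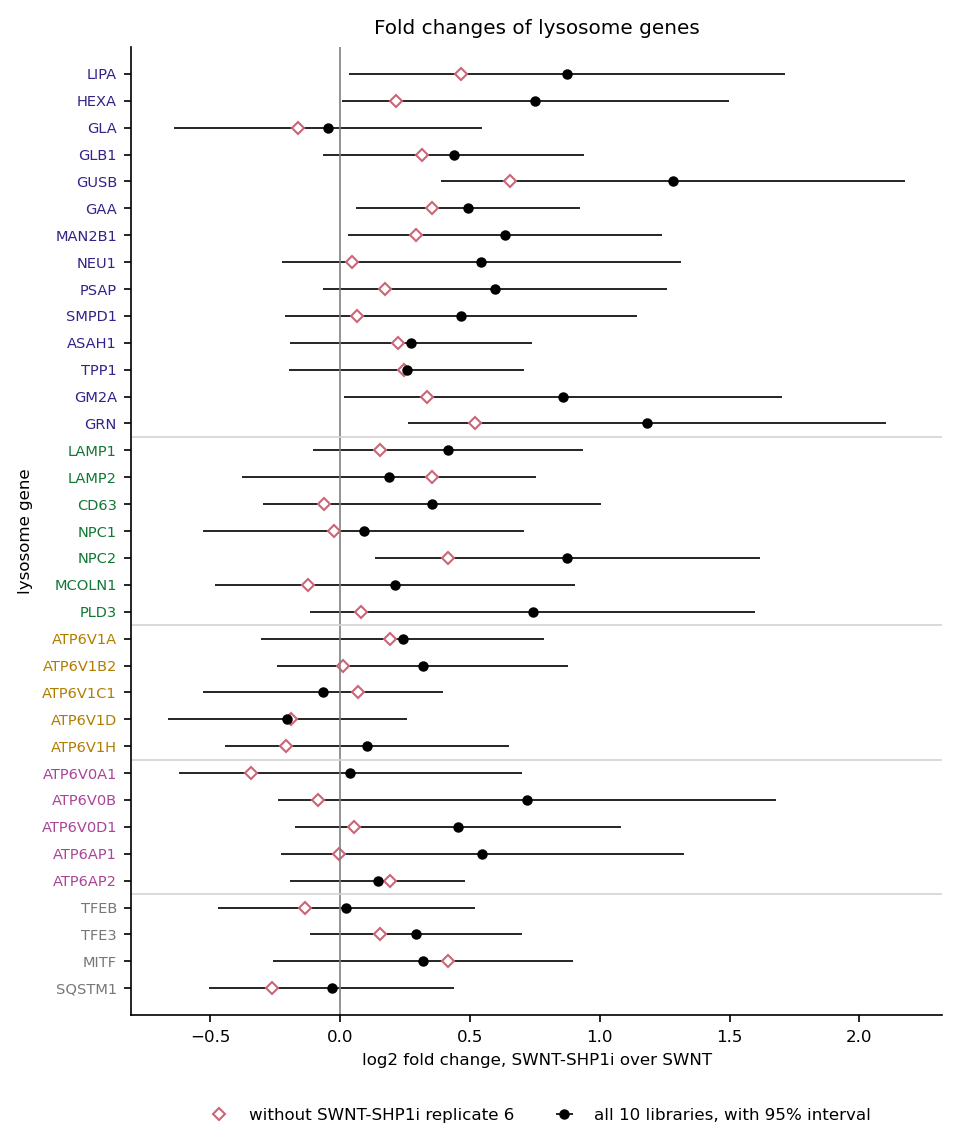
Log2 fold change of SWNT-SHP1i over SWNT for the 35 lysosome genes, ordered and coloured by role. Black points with bars are fits to all 10 libraries with 95% intervals, and open diamonds are fits without SWNT-SHP1i replicate 6; 8 intervals exclude 0 before adjustment, and most diamonds lie nearer to 0 than the points.

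All 7 membrane, cholesterol export and channel genes had positive fold changes with a median of 0.35. Without replicate 6 the median was 0.08, and 4 of 7 were positive. NPC2 (chromosome 7, 97730516 to 97740331), the soluble carrier that takes up freed cholesterol, was the only one of these with an unadjusted p under 0.05. It measured 142, 125, 126, 151 and 126 CPM in SWNT and 174, 170.4, 253, 118 and 513 CPM in SWNT-SHP1i. Replicate 5 lay below and the other 4 libraries above the whole SWNT range. The log2 fold change was 0.87 (0.13 to 1.62) and 0.42 without replicate 6. NPC1, the membrane protein that accepts cholesterol from NPC2, had a log2 fold change of 0.09 (-0.53 to 0.71), or -0.02 without replicate 6. NPC1 ran from 16.1 to 25.4 CPM in SWNT and was at 21.3, 28.7, 10.2, 27.4 and 31.2 CPM in SWNT-SHP1i, with replicate 3 the lowest of all.

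LAMP1 and LAMP2, the main glycoproteins of the lysosomal membrane, parted in replicate 6. LAMP1 stood at 280, 255, 257, 236 and 226 CPM in SWNT and 309, 279, 305, 221 and 557 CPM in SWNT-SHP1i. LAMP2 stood at 186, 163, 113, 205 and 215 CPM in SWNT and 251, 243, 199, 209 and 103 CPM in SWNT-SHP1i. Replicate 6 was thus the highest library for LAMP1 and the lowest for LAMP2. The log2 fold changes were 0.42 for LAMP1 and 0.19 for LAMP2 with all libraries. Without replicate 6 they were 0.15 and 0.35.

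The fold changes of CD63, PLD3 and MCOLN1 were all near or below 0 without replicate 6. CD63 ran from 389.9 to 521 CPM in SWNT and from 369 to 468 CPM in the other 4 SWNT-SHP1i libraries, and it was at 1134 CPM in replicate 6. Its log2 fold change was 0.35 with and -0.06 without that library. PLD3, a lysosomal nuclease of the phospholipase D family, was the most even of all members in SWNT at 216 to 237 CPM. In SWNT-SHP1i PLD3 measured 271, 279, 211, 195 and 932 CPM, with log2 fold changes of 0.74 and 0.08. The calcium channel MCOLN1 gave 0.21 and -0.12.

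**Figure D4:**
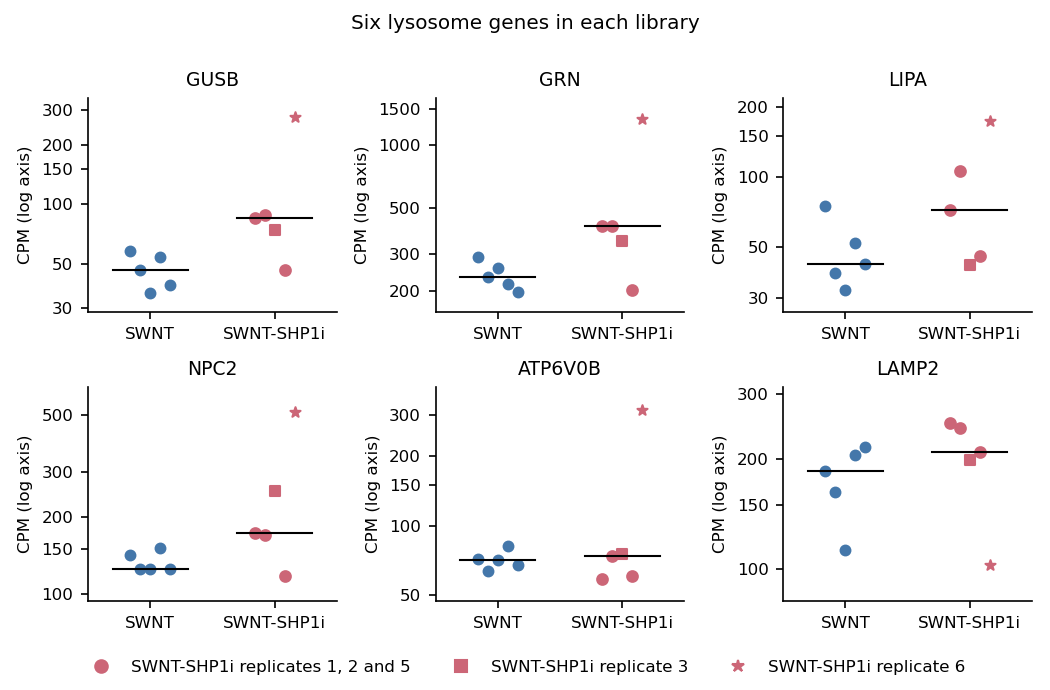
CPM (log axis) of GUSB, GRN, LIPA, NPC2, ATP6V0B and LAMP2 in each library, with a line at the group median of 5. SWNT-SHP1i replicates 1, 2 and 5 are circles, replicate 3 a square and replicate 6 a star; for GUSB and GRN all SWNT-SHP1i libraries but replicate 5 lie above SWNT, for ATP6V0B only replicate 6 does, and for LAMP2 replicate 6 is the lowest.

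In the V1 sector of the pump, 3 of 5 members were positive, with a median log2 fold change of 0.10 and 0 with an unadjusted p under 0.05. Without replicate 6 the median was 0.01. ATP6V1A and ATP6V1B2 form the ring that splits ATP. ATP6V1A gave 0.24 (-0.30 to 0.78) and ATP6V1B2 0.32 (-0.24 to 0.88). ATP6V1B2 ran from 36.2 to 54.4 CPM in the other 9 libraries and was at 103 CPM in replicate 6, without which it gave 0.01. The stalk subunit ATP6V1D gave -0.20 (-0.66 to 0.26). The regulatory subunits ATP6V1C1 and ATP6V1H gave -0.07 and 0.10, and 0.07 and -0.21 without replicate 6. In replicate 6 ATP6V1C1 was the lowest of all libraries at 14.3 CPM against 21.3 to 28.1 CPM, while ATP6V1H was the highest at 62.1 CPM against 25.8 to 39.0 CPM.

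In the V0 sector all 5 members were positive, with a median of 0.46 that was -0.00479 without replicate 6, where 2 of 5 were positive. ATP6V0B (chromosome 6, 167316947 to 167320212), a subunit of the ring that carries protons, showed the gap most clearly. It measured 71.4, 63.8, 71.2, 81.9 and 67.2 CPM in SWNT, then 58.9, 73.7, 75.0, 60.7 and 318 CPM in SWNT-SHP1i. Apart from replicate 6, the groups overlapped. The log2 fold change was 0.72 with and -0.08 without it. ATP6V0D1, which links the sectors, gave 0.46 and 0.05, and the accessory subunit ATP6AP1 gave 0.55 and -0.00479. The largest V0 subunit, ATP6V0A1, gave 0.04 and -0.34. The (pro)renin receptor ATP6AP2, another accessory subunit, varied least between libraries in SWNT-SHP1i, at 59.8 to 75.5 CPM against 55.7 to 70.9 CPM in SWNT, and gave 0.14 (-0.19 to 0.48). The unnamed row over ATP6V0C, the main ring subunit, reached 597 CPM in replicate 6 against 85.1 to 141 CPM in the remaining 9, with log2 fold changes of 1.06 and 0.22. That over ATP6V1E1, a peripheral stalk subunit, gave -0.06, and -0.18 without replicate 6.

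The transcription factors had small fold changes. TFEB was at 52.0, 71.9, 84.5, 69.2 and 74.1 CPM in SWNT and 74.7, 55.4, 79.7, 46.6 and 101 CPM in SWNT-SHP1i. The groups overlapped, and the log2 fold change was 0.02 (-0.47 to 0.52), or -0.13 without replicate 6. TFE3 gave 0.29 (-0.12 to 0.70) and MITF 0.32 (-0.26 to 0.90), and without replicate 6 they gave 0.15 and 0.42. These intervals leave room for differences of up to 0.90 on the log2 scale. SQSTM1, whose protein carries cargo into autophagosomes and whose RNA is a target of several stress pathways, stood at 296, 311, 324, 278 and 349 CPM in SWNT. It stood at 239, 271, 259, 269 and 484 CPM in SWNT-SHP1i, so that all but replicate 6 lay below the whole SWNT range. Its log2 fold change was -0.03 (-0.50 to 0.44) with all libraries and -0.26 without replicate 6 (unadjusted p = 0.0621, adjusted p = 0.951 by edgeR).

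The members that stood out here were read beside other genes of the same organelle. In each of the 6 lists that follow, 0 genes passed over all genes tested, in either direction. Of 30 other lysosomal hydrolases and cofactors tested, 23 were positive and 7 negative, 5 with an unadjusted p under 0.05, all higher (16.7%, background 3.49%), and the median was 0.32. Without replicate 6, 3 had an unadjusted p under 0.05 (10%, background 2.59%) and the median was 0.18. The smallest p were those of the deoxyribonuclease DNASE2, with a log2 fold change of 1.60 (0.82 without replicate 6), the acid phosphatase ACP2 (0.71 and 0.47) and the arylsulfatase ARSA (1.06 and 0.49). Of 26 other membrane and sorting genes 18 were positive, with a median of 0.15, and 16 with a median of 0.08 without replicate 6. An unadjusted p under 0.05 was found for 3 of them, all higher (11.5%, background 3.49%), and for 1 without that library (3.85%, background 2.59%). The macrophage glycoprotein CD68 (1.85 and 1.12), the amino acid exporter SLC66A1 (1.09 and 0.51) and LAPTM5 (0.84 and 0.41), found mainly in blood-derived cells, came first. Of the 14 cathepsins and legumain, the lysosomal proteases, 13 were positive and 8 had an unadjusted p under 0.05, all higher (57.1%, background 3.49%), with a median of 0.96. Without replicate 6 the count was 2 (14.3%, background 2.59%) and the median 0.33, and without replicates 3 and 6 the count was 1 (7.14%, background 1.76%). Legumain, LGMN, gave 1.63 and 0.85, CTSZ 2.02 and 0.34, and CTSD 2.33 and 0.16.

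The remaining lists lay near the median of all genes. Of 18 other pump subunits and assembly genes tested, 10 were positive with a median of 0.03, which was 0.00384 without replicate 6. TCIRG1, the V0 subunit a3 found in osteoclasts and macrophages, gave 0.999, and 0.17 without replicate 6, where it was at 214 CPM against 25.7 to 65.4 CPM elsewhere. TLDC2 (0.52) and the V0 subunit ATP6V0E1 (0.41, and 0.00384 without replicate 6) followed. ATP6V0D2, the other isoform of the d subunit and one named after its values were seen, was all but unread outside replicate 6. It had 204 reads there, 4 in SWNT replicate 4, 1 in SWNT replicate 2 and 0 in the other 7 libraries. Among 25 genes that control TFEB and its relatives, 15 were positive with a median of 0.05. Without replicate 6 that turned, with 10 positive, 15 negative and a median of -0.02. TFEC, the fourth factor of the family, gave 1.32 and 1.37 without replicate 6 at 0.357 to 6.98 CPM, while the small GTPases RHEB and RRAGD, which act on the kinase complex that holds TFEB in the cytosol, gave -0.23 and -0.71. RRAGD gave -0.43 without replicate 6 and -0.18 without replicates 3 and 6. Of 30 autophagy genes 12 were positive and 18 negative, with a median of -0.08 and 0 at an unadjusted p under 0.05. Without replicate 6 the median was -0.02. BECN1 (-0.34), VPS11 (0.26) and ATG3 (0.24) had the smallest p there, and gave -0.18, 0.13 and 0.26 without replicate 6.

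Markers of macrophages and of other cell types also differed between these libraries. All 20 macrophage markers were tested, all 20 were positive, and 13 were highest in replicate 6. Among all genes tested, 50.8% were positive and 29.4% were highest there. MRC1, C1QA, C1QC, VSIG4, ITGAM, CYBB and SIGLEC1 were not highest in replicate 6. ITGAM was the lowest of its group there, at 14.6 CPM. The summed level of all 20 was 1447, 489, 509.7, 762 and 698 CPM in SWNT. In SWNT-SHP1i it was 1575, 1729.7, 1678, 501 and 3013 CPM. The median centred log2 CPM of the hydrolases was 0.01, -0.32, -0.24, -0.29 and -0.24 in SWNT and 0.19, 0.15, 0.10, -0.36 and 1.34 in SWNT-SHP1i. In both measures SWNT replicate 1 was the highest SWNT library, SWNT-SHP1i replicate 5 the lowest and replicate 6 the highest of its group. The order of the other libraries was not shared, since SWNT replicate 4 had the next highest macrophage sum in SWNT and the next to lowest hydrolase median. Markers of osteoclast-like and lipid-associated macrophages summed to 807 to 1126 CPM in SWNT, to 972 to 1497 CPM in the other 4 SWNT-SHP1i libraries and to 9413 CPM in replicate 6. In that library the acid phosphatase ACP5 was at 1686 CPM and SPP1 at 1600.3 CPM, with at most 119 and 22.5 CPM elsewhere. APOE, the largest part of the sum, was at 4546 CPM there and at most 720 CPM elsewhere. Of the 13 markers in this list, 9 were highest in replicate 6. CD9 and LPL lay inside the range of the other libraries, DCSTAMP was highest in SWNT-SHP1i replicate 3, and CALCR was lowest in replicate 6. No marker of either list was without reads in all libraries. Smooth muscle markers went the other way, with all 10 negative and their lowest sum in replicate 6. Fibroblast markers, all 9 of them positive, summed to 34419 to 67284 CPM in SWNT and 56267 to 82958 CPM in SWNT-SHP1i. Most of the sum was collagen RNA, with COL1A1 at 53797 and COL3A1 at 18502 of 79296 CPM in replicate 6. The markers parted in that library, where 2 of the 9, COL1A1 and SFRP2, were highest of all libraries. DCN, LUM, PDGFRA, COL3A1 and PI16 were at their lowest of the SWNT-SHP1i group there. Neutrophil markers, of which 6 were tested and all 6 positive, summed to 4.01 to 10.9 CPM in SWNT and to 43.0, 7.70, 70.6, 2.94 and 124 CPM in SWNT-SHP1i replicates 1, 2, 3, 5 and 6. Schwann cell markers, all 6 negative, summed to 164 to 207 CPM in SWNT and 61.4 to 137 CPM in SWNT-SHP1i. The other lists were mixed or small. Endothelial markers had 6 positive and 3 negative fold changes, and T and NK cell markers 4 and 4. B and plasma cell markers had 4 and 3, and adipocyte markers 2 and 4. All 3 red cell markers tested were negative, and the 1 skeletal muscle marker tested was positive. The V1 sector did not share the order of the hydrolases, with 0.14 in SWNT-SHP1i replicate 5, above its value in replicates 1 to 3. The part of cell content in the lysosomal values was not tested.

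**Figure D5:**
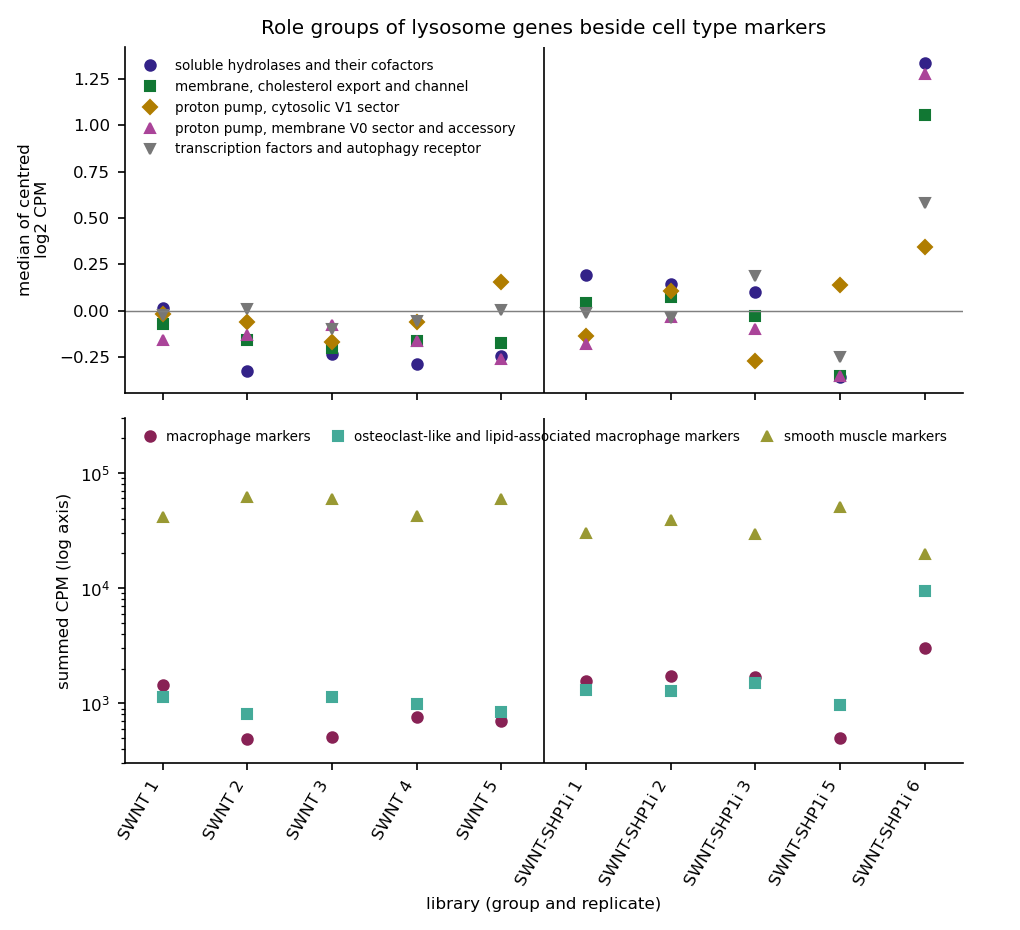
Top, median of the centred log2 CPM of the members of each role in the 10 libraries; bottom, summed CPM (log axis) of macrophage, osteoclast-like and smooth muscle markers in the same libraries. The hydrolase median is 1.34 in SWNT-SHP1i replicate 6 and -0.36 in replicate 5, where the macrophage sums are 3013 and 501 CPM.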

How the data were processed

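The deposited values are raw read counts per gene, 1 table of 10 libraries with gene coordinates and exon lengths, per the file headers. Trim Galore, STAR, DESeq2 and the build Sscrofa11.1 are named in the submitters' processing notes. For the counting program, the strand setting and the annotation release, nothing is given in the sources used here, so reads of overlapping genes and of near-identical copies cannot be assigned with certainty.

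After TMM scaling and filterByExpr at a minimum count of 10, 15930 genes remained. SWNT-SHP1i was tested against SWNT in edgeR 4.0.16 under R 4.3.3 (robust quasi-likelihood fit). P-values were adjusted by Benjamini-Hochberg over the 15930 genes and called at 0.05. Fold changes are log2, and 95% intervals use an approximate standard error, the fold change divided by the root of F. CPM and RPKM use TMM-scaled library sizes, and log2 CPM has a prior count of 2. The counts are reads, not independent molecules. Each library is a separate animal. Replicate numbers follow accession order and pair no animals. The closest libraries differed by a median chi-square of 5.47 per gene (0.45 under sampling noise). The fit was tested on simulated data. Some list genes without a name in the table were named from an identifier table or from RefSeq genes with an overlap of at least 0.5.

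The members, lists and tests were chosen with earlier results of these data known. All members may be named, and of each further list the 3 genes with the smallest p were named. Alternatives were a filter at 1 CPM, no filter, upper-quartile and RLE scaling, DESeq2 1.42.0, and limma-voom with library quality weights (limma 3.58.1). Further ones were a quasi-likelihood fit without robust estimation, the animal number range as a term, animals with B9 numbers only, a threshold of 0.1 and libraries left out.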

Additional observations from a re-analysis of the deposited data

Results flagged for a closer look

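Within a group of 5, a library was picked out where its gap to the nearest other library, on the log2 CPM scale, exceeded 0.71 of the whole range. Chance flags about 1 in 20 groups, but groups read in the same libraries are not independent. SWNT-SHP1i replicate 6 was highest for 29.4% and lowest for 30.5% of all genes tested. The share of all genes that would be picked out was not computed. Of the 70 member groups, 11 were picked out. In 8 of these SWNT-SHP1i replicate 6 was highest: HEXA at 481 CPM (129 to 171 in the rest of the group), CD63 at 1134 CPM, PLD3 at 932 CPM, ATP6V1B2 at 103 CPM, ATP6V1H at 62.1 CPM, ATP6V0B at 318 CPM, ATP6V0D1 at 196 CPM and SQSTM1 at 484 CPM. The same library was lowest for LAMP2, at 103 CPM against 199 to 251 CPM. In SWNT-SHP1i replicate 3 GLA was lowest at 6.33 CPM, against 14.4 to 18.5 CPM. In SWNT replicate 4 TPP1 was lowest at 131 CPM, against 191 to 221 CPM.

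Genes outside the 35 were picked out in the same way. SWNT-SHP1i replicate 6 was highest for ATP6V0C (597 CPM), ATP6V0E1 (87.4 CPM), CTSD (7006 CPM) and ATP6V0D2 (8.48 CPM) and lowest for BECN1 (20.1 CPM). SWNT-SHP1i replicate 3 was highest for TLDC2 (12.4 CPM). SWNT replicate 3 was lowest for TFEC (0.357 CPM) and VPS11 (31.5 CPM), and SWNT replicate 1 was highest for LGMN (264 CPM).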

How the results depend on the processing

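Over 20 alternatives per member, 661 of 700 values kept the direction of the fold change, and 0 members and 0 genes passed at 0.05 under any of them. At a threshold of 0.1 the edgeR counts were also 0, while the smallest adjusted p of any gene was 0.0631 with DESeq2 and 0.0933 with limma-voom, under that threshold. The smallest adjusted p of a member was 0.311, without SWNT-SHP1i replicate 5. The median of the members ran from 0.15 to 0.47 with 1 library left out, and was 0.16 with limma-voom and its library weights. DESeq2 gave no p for PLD3 and ATP6V0B. No paired analysis was possible because the labels give no replicate numbers shared between the groups. The direction turned for 11 members. With 1 library left out, the fold change ran from -0.16 to 0.14 for GLA, -0.0607 to 0.47 for CD63, -0.0250 to 0.28 for NPC1, -0.12 to 0.40 for MCOLN1, -0.14 to 0.0680 for ATP6V1C1, -0.21 to 0.19 for ATP6V1H, -0.34 to 0.20 for ATP6V0A1, -0.0845 to 0.88 for ATP6V0B, -0.00479 to 0.71 for ATP6AP1, -0.13 to 0.14 for TFEB and -0.26 to 0.0314 for SQSTM1. Without SWNT-SHP1i replicates 3 and 6 GLA gave 0.0742, CD63 -0.10, ATP6V1C1 0.0371, ATP6V1H -0.19, ATP6V0A1 -0.18, ATP6V0B -0.14, TFEB -0.25 and ATP6V0E1 -0.00743. With limma-voom GLA gave 0.0640, ATP6V1H -0.0987, ATP6V0A1 -0.24, ATP6V0B -0.0248 and TFEB -0.15. Over B9 animals GLA gave 0.11 and SQSTM1 0.0306. With the animal number range as a term ATP6V0A1 gave -0.0142. SQSTM1 gave 0.00221 with RLE scaling and 0.00215 with DESeq2. The cause of these turns was not tested.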

Other observations

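The ratio of pairs of lysosomal genes within a library, per exon length, is free of the scaling between libraries. LAMP1 over LAMP2 reached 23.7 in SWNT-SHP1i replicate 6, against 4.59 to 9.92 in the remaining 9. ATP6V0D1 over ATP6V1C1, a V0 over a V1 subunit, was 21.8 there and 3.74 to 5.73 elsewhere. This pair does not stand for the sectors. In replicate 6 ATP6V0D1 was at 2.62 and ATP6V1C1 at 0.54 times the median CPM of the remaining 9. The other V1 subunits ATP6V1B2, ATP6V1H, ATP6V1A and ATP6V1D were at 2.13, 2.09, 1.16 and 0.95 times. NPC2 over NPC1 was highest in SWNT-SHP1i replicate 3 at 80.6, with 53.6 in replicate 6 and 13.9 to 26.5 in the other 8. TFE3 over TFEB stayed between 0.398 and 0.795 in all 10 libraries.

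RRAGD, which helps to recruit the kinase complex that controls TFEB, was at 11.0 CPM in SWNT-SHP1i replicate 6 and at 42.5 to 155 CPM elsewhere. That library was the highest for 27 of the 35 members. It was the lowest for 9 of the 25 genes in RRAGD's list (36%) and for 30.5% of all genes tested. Whether the level of RRAGD bears on the lysosomal genes was not tested.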
